A study of Mus musculus with 14 samples.

Results

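The proteasome genes described here are the 51 protein-coding mouse genes whose symbols run from Psma to Psmg followed by a number, out of 21900 protein-coding genes in the RefSeq gene table used for the assignment. The measurement is H3K4me3, a methyl mark on histone H3 found at the starts of active and poised genes, read by chromatin immunoprecipitation and sequencing (ChIP-seq) of mouse prefrontal cortex. CSDS30 holds 5 libraries from mice given 30 days of chronic social defeat, in which each mouse met an unfamiliar aggressive CD1 mouse every day and lived beside an aggressor behind a perforated divider. CSDS10 holds 5 libraries after 10 days of the same procedure. Control holds 3 libraries from mice kept in divided cages with no aggressor. All were adult male C57BL/6J mice with no engineered allele named in the labels, 10 to 12 weeks old. In CSDS10 and CSDS30 the cortex was dissected 24 hours after the final defeat session, which control mice did not have. Behavioural tests fell in the last days of each defeat period. Whether each library is a different animal is not stated in the labels, and the p-values below therefore reflect only how much these libraries vary. Each gene was represented by the strongest summit of the authors' peak set within 2 kb of either gene boundary, ranked by the mean over the 13 libraries, and this choice did not use the groups. All p-values of single genes, adjusted or unadjusted, come from limma, and log2 differences are on the scale of log2(value + 1). The level of a gene is the normalised read count at that summit, that is reads divided by the authors' size factor for the library.

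The proteasome is the complex that degrades proteins tagged with ubiquitin. Its 20S core is a barrel of outer alpha rings and inner beta rings, and 3 of the beta subunits carry the cutting sites. The 19S particle caps the barrel, where its ATPases unfold the substrate and its non-ATPase subunits bind ubiquitin and remove it. Interferon-induced beta subunits can replace the standard cutting subunits to form the immunoproteasome, which trims peptides for antigen presentation. Most of the genes are expressed in every cell. In neurons, the complex turns over synaptic proteins. In mammals, Nfe2l1 is the transcription factor that raises proteasome genes together when the complex is inhibited.

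Between 4512817 and 10887911 reads per library fell on the 153207 deposited summits. Between pairs of libraries, the correlation of log2 levels over summits ranged between 0.65 and 0.89. CSDS30 replicate 2, with the lowest median level over genes (81.2), and CSDS10 replicate 2, with the highest (107), formed the pair with the lowest correlation. All libraries carry the same batch date. Of 6 markers each, 6 of excitatory neurons, 4 of inhibitory neurons, 4 of astrocytes, 4 of oligodendrocytes, 3 of microglia and 5 of endothelial cells had a summit. So had 6 of striatal neurons, 2 of T cells and B cells (Cd4 and Cd79a) and 2 of liver and muscle (Apoa1 and Ckm). The tissue is a mix of cells, and fewer cells that carry the mark at a gene cannot be told apart from less of the mark per cell.

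The promoters of 6 members are shown as read from RefSeq on GRCm38.p6 (the mm10 primary assembly), from 250 bases before to 50 bases after the start, 5′ to 3′ on the gene's own strand. Psmd11 and Psmd6 are the members with the highest levels. Psmb5 and Psmb6 encode cutting subunits of the standard core and are among the lowest. Psmb8 and Psmb9 encode their immunoproteasome counterparts. Capitals mark CCGGAAG, the core bound by ETS-family factors, in Psmd11 (read on the other strand as CTTCCGG) and Psmd6, and TGACNNNGC, the core of the antioxidant response element bound by Nfe2l1 and Nfe2l2 with small Maf proteins, in Psmb5 and Psmb6. In Psmb8 they mark TTCNNNGAA, the gamma-activated site of STAT dimers. In Psmb9 they mark GGGCGG, the GC box of Sp-family factors, and ATTGG, the CCAAT box on the other strand. The windows are chr11:80428365-80428664 (plus strand) for Psmd11, chr14:14120896-14121195 (minus strand) for Psmd6, chr14:54617946-54618245 (minus strand) for Psmb5, chr11:70525107-70525406 (plus strand) for Psmb6, chr17:34197945-34198244 (plus strand) for Psmb8 and chr17:34187281-34187580 (minus strand) for Psmb9.
Psmd11: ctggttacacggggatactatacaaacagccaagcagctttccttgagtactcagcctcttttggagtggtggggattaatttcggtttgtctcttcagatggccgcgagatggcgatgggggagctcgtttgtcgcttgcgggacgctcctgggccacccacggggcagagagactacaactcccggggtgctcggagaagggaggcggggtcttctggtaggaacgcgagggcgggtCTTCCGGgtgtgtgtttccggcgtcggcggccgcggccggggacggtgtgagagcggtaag
Psmd6: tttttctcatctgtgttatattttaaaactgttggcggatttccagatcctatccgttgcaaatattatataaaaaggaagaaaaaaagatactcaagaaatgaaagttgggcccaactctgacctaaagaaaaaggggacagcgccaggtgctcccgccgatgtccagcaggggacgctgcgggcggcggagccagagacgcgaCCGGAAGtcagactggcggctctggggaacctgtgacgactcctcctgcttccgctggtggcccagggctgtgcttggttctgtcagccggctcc
Psmb5: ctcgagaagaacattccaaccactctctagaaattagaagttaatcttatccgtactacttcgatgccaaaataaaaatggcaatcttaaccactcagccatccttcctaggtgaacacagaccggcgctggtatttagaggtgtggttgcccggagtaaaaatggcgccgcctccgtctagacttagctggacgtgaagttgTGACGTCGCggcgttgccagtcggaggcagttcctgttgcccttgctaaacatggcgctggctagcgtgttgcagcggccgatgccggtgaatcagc
Psmb6: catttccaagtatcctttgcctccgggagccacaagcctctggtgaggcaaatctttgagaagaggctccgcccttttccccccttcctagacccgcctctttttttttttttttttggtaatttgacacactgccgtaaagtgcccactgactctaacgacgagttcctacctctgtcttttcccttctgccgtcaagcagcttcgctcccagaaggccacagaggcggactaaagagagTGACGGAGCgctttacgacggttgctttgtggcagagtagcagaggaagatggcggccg
Psmb8: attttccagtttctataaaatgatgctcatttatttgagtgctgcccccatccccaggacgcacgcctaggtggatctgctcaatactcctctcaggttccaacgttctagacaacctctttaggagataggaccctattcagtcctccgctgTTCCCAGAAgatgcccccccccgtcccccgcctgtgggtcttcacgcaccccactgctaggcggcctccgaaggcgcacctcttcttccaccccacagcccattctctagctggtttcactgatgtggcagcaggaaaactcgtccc
Psmb9: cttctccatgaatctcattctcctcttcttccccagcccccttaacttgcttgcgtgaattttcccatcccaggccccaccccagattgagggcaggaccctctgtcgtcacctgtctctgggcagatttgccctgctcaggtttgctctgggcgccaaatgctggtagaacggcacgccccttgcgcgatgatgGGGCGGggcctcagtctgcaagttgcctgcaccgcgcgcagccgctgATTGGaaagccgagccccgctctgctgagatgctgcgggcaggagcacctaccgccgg

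RefSeq promoters were at hand for 43 of the 51 members. The other members are Psma8, Psmb1, Psmb2, Psmb7, Psmc3, Psmd3, Psmd7 and Psmg2. Each motif was searched on both strands of the 300 bases, and matches of different motifs may overlap. CCGGAAG was found in 16 of the 43 member promoters (37.2%), against 12.2% of the 17492 protein-coding promoters and 17.0% of the 11382 promoters of genes with a summit. The members that hold it are Psma6 of the alpha ring, the ATPases Psmc1, Psmc2 and Psmc6, the lid and base subunits Psmd2, Psmd4, Psmd6, Psmd11, Psmd12 and Psmd13, the activators Psme3 and Psme4, the chaperones Psmg1 and Psmg3, and Psmc3ip and Psme3ip1. No beta-ring promoter is among them, with Psmb1, Psmb2 and Psmb7 not searched. The 15 of these members with a summit had a median level of 138 (81.2 to 169.9), and the 24 with a promoter but without the core had 117 (53.6 to 149.9). These counts are descriptions of letters in the windows and carry no test.

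TGACNNNGC was found in 6 member promoters, those of Psmb5, Psmb6, Psmc6, Psmd9, Psmd12 and Psme4 (13.95%, against 13.2% of all promoters and 14.5% of those with a summit). The core of the interferon-stimulated response element was found in 5, those of Psmb3, Psmd4, Psmd9, Psme1 and Psmg4 (11.6%, against 3.37% of all promoters and 2.78% of those with a summit). TTCNNNGAA was found in 3, those of Psmb8, Psmd2 and Psmg1 (6.98%, against 7.74% of all promoters and 6.40% of those with a summit). GGGCGG was in 24 (55.8%), which is above the share of all promoters (47.5%) and below that of promoters of genes with a summit (65.8%). CCAAT was in 14 (32.6%, against 38.7% of all promoters and 38.3% of those with a summit). TATAAA was in 4 (Psmb4, Psmb8, Psmd1 and Psmd6; 9.30%), which is below the share of all promoters (13.1%) and above that of promoters of genes with a summit (6.86%). The palindrome bound by NRF1 was in the promoters of Psma2 and Psmg1 (4.65%, against 1.34% of all promoters and 1.96% of those with a summit), and AGATGGCGG, a start element of the YY1 type, in those of Psmb6 and Psmd5 (4.65%, against 1.58% and 2.31%). TGACGTCA, the cyclic AMP response element, was in 0 of the 43 windows, in 2.36% of all promoters and in 3.24% of those with a summit. The median member promoter had 19 CpG dinucleotides and 57.3% GC, against 14 and 56.7% over all promoters and 21 and 61.7% over promoters of genes with a summit. Psma7 had the most CpG dinucleotides (41), and the fewest among members with a summit were the 3 of Psmb10.

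Of the 51 members, 46 had a summit within 2 kb (90.2%), and all 46 passed the filter on low reads. Over all protein-coding genes, 14237 of 21900 had one that was tested (65.0%). The 5 members without a summit were Psma8, Psmb11, Psme2b, Psma6 and Psmf1. Psma8, an alpha subunit of the testis proteasome, Psmb11, a beta subunit of the thymus, and Psme2b, a copy of the activator gene Psme2, had their nearest summits 20506, 7144 and 45419 bp away. Psme2 and Psme2b are close copies, and how reads that fit both were placed is not given in the sources used here. Psma6 and Psmf1 were missed for another reason, because their RefSeq start lies inside the span of the gene table. Psma6, an alpha-ring subunit, had a summit 302 bp after its start with a level of 110.02, and Psmf1, an inhibitor and adaptor of the core, had one 338 bp after its start with 126. With these start summits, every constitutive subunit of the core and of the 19S particle with a symbol of this kind carried the mark. Just inside the distance limit were Psmc2 (1610 bp from the boundary), Psme2 (767 bp) and Psma3 (752 bp), with levels of 135, 124 and 108, and just outside it was Psmf1 (2514 bp, where the summit had 19.5). Psmc3ip, a factor of meiotic recombination, and Psme3ip1, a partner of Psme3, share the symbols but are no proteasome subunits.

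**Figure D1:**
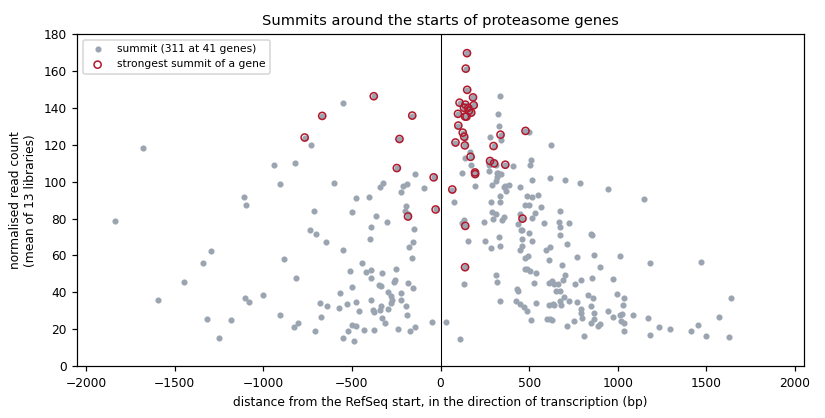
Level of each summit (mean normalised read count over the 13 libraries, vertical axis) against its distance from the RefSeq start in the direction of transcription (horizontal axis, bp), for 311 summits at 41 members. Circles mark the strongest summit of each gene in the plotted range, the start summits of Psma3, Psma6 and Psmf1 included; 25 of the circles lie between 60 and 200 bp after the start.

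The mark peaked just after the start of the genes. Of the 39 members with a summit and a RefSeq start, 29 had the strongest summit after the start and 10 before it (74.4% after it, against 74.9% of 11353 genes). It lay within 500 bp of the start in 36 members (92.3%, against 74.6% of those genes). The median position was 138 bp after the start in members and 139 bp after it in all genes, and 24 members lay between 60 and 200 bp after it. Summits 0 to 250 bp after the start had a median level of 118, those 250 to 500 bp after it 89.0, and those up to 250 bp before it 74.6. Further away, the medians were between 26.3 and 49.6. Each member had 5 to 12 summits within 2 kb, with a median of 7, against 8 over all genes. Psma3 was the exception in position: its strongest summit lay 6092 bp before its RefSeq start, and a summit 194 bp after that start had 105.

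Many members have another gene close to their summit, though not always its promoter. A boundary of another gene, its start or its end, lay within 2 kb of the chosen summit in 18 of the 46 members (39.1%, against 29.5% of all genes with a summit). In 16 members that gene was assigned the same summit. Among pairs with a RefSeq start at hand for both genes, 7 members have a neighbour that starts within 1000 bp on the opposite strand. These are Psma2 with Mrpl32 (205 bp between starts), Psma7 with Ss18l1 (19 bp), Psmb9 with Tap1 (226 bp), Psmc5 with Ftsj3 (101 bp), Psmd13 with Sirt3 (525 bp), Psme2 with Rnf31 (641 bp) and Psme3ip1 with Rspry1 (215 bp). In 5 of the 7 the strongest summit lay nearer to the start of the neighbour, and in Psma2 and Psmc5 nearer to that of the proteasome gene. RefSeq starts of both genes were not at hand for Psmb1 with Tbp, Psmc2 with Dnajc2 and Psmg2 with Cep76, which also lie within 2 kb of a shared summit. The levels of such pairs cannot be told apart at the shared summit.

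The members carried more of the mark than most genes. Their median level over the 13 libraries was 124, against 97.4 over all 14237 genes with a summit. Of the 46, 39 lay above the gene median, 29 above the upper quartile of genes (117) and 1 below the lower quartile (67.0), and the median member stood at percentile 83.3. Levels ran between 53.6 at Psmd10 and 169.9 at Psmd11, a ratio of 3.17. Within groups, the SD of the log2 level was 0.19 in the median member (0.07 to 0.34), against 0.24 in the median gene. Members and genes were not matched on level for these SDs. Between 28 and 271 reads per library stood behind each member's level. No test was made of these levels against other genes.

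**Figure D2:**
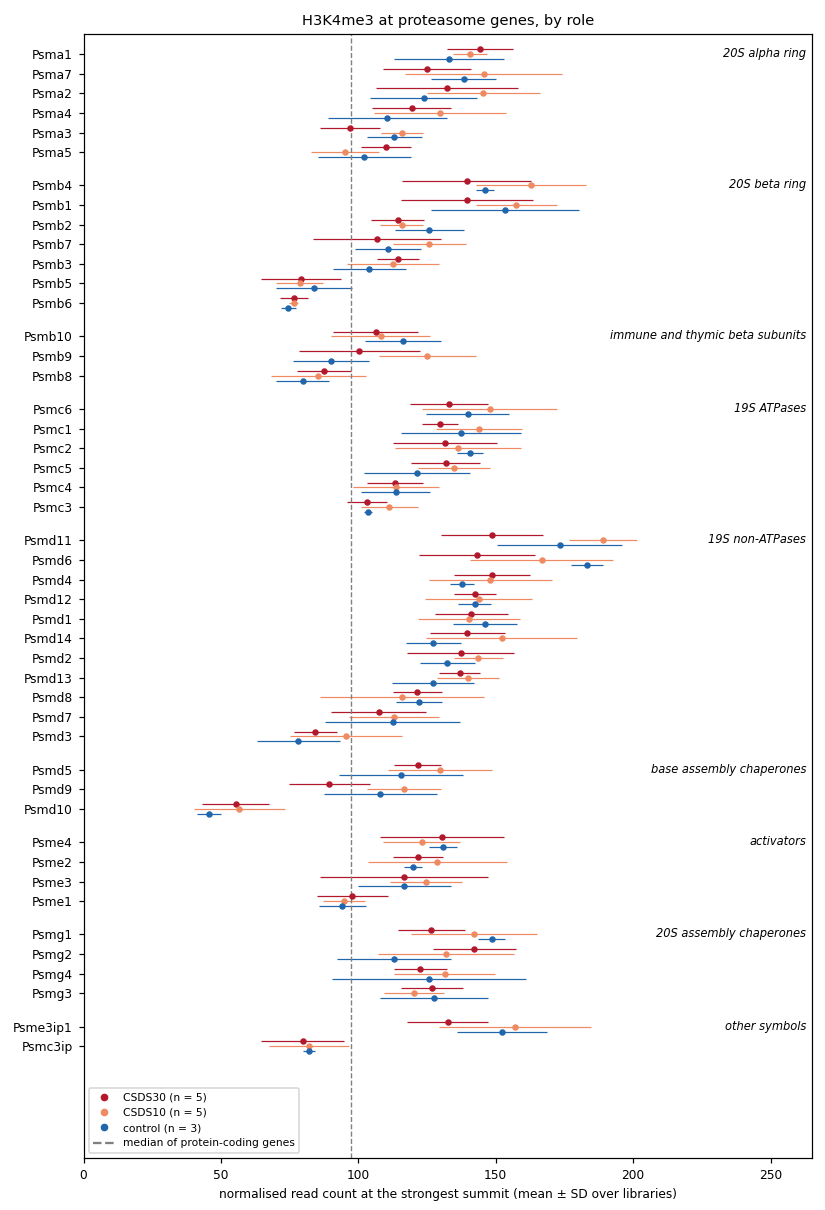
Mean normalised read count at the strongest summit of each of 46 proteasome genes (horizontal axis) with its SD over libraries, by role, for CSDS30 (n = 5, red), CSDS10 (n = 5, orange) and control (n = 3, blue). The dashed line is the median of all protein-coding genes with a summit (97.4). Most genes lie to its right; Psmd10 lies lowest and Psmd11 highest.

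In the 20S alpha ring, 6 of 8 genes had a summit within 2 kb, with a median level of 128 over the 13 libraries. Psma1 (140.2), Psma7 (136) and Psma2 (135) stood highest, Psma4 had 121, and Psma3 (108) and Psma5 (102) stood lowest. These subunits form the gate through which substrates enter. The beta ring was more spread: all 7 genes had a summit, with a median of 115. Psmb4 (149.9) and Psmb1 (149.6), which have no cutting site, stood highest, and Psmb5 (80.0) and Psmb6 (76.1) lowest. Psmb2, Psmb7 and Psmb3 had 118, 115 and 111.

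The subunits of the standard core that cut are Psmb5 (chymotrypsin-like), Psmb6 (caspase-like) and Psmb7 (trypsin-like). At Psmb5 the level was 59.5, 73.4, 86.2, 77.9 and 98.5 in CSDS30, 77.1, 77.6, 65.9, 84.7 and 87.8 in CSDS10, and 99.2, 72.1 and 80.2 in control. At Psmb6 it was 76.7, 70.3, 84.1, 73.6 and 78.3 in CSDS30, 78.7, 74.8, 75.3, 76.2 and 77.2 in CSDS10, and 71.3, 76.4 and 75.6 in control. Both genes overlapped between all groups, and every library but control replicate 1 and CSDS30 replicate 5 at Psmb5 was below the gene median of 97.4. At Psmb7 the level was 116, 65.6, 114, 119 and 120.3 in CSDS30, 138, 139.7, 120.5, 124 and 107 in CSDS10, and 124, 102 and 107 in control. CSDS30 replicate 2 stood apart from the other libraries of its group at Psmb7, and the groups overlapped. In log2 terms, Psmb5 differed by -0.09 (SE 0.18) both in CSDS10 and in CSDS30 against control, and Psmb6 by 0.04 (SE 0.16) in both.

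The inducible subunits carried the mark as well. Psmb8, Psmb9 and Psmb10, which replace Psmb5, Psmb6 and Psmb7 in the immunoproteasome, had means of 85.0, 107 and 109 over the 13 libraries, against 80.0 for Psmb5, 76.1 for Psmb6 and 115 for Psmb7; these differences between genes were not tested. At Psmb8 the level was 77.5, 90.6, 103, 82.1 and 84.8 in CSDS30, 87.8, 63.5, 90.4, 110.1 and 75.6 in CSDS10, and 90.1, 71.2 and 77.9 in control. At Psmb10 it was 90.8, 114, 90.4, 127 and 109 in CSDS30, 98.4, 81.9, 118, 127 and 115 in CSDS10, and 121, 101 and 127 in control. All 3 groups overlapped at both genes. The summit taken for Psmb10 lies 365 bp after its start, and the end of Lcat, a gene of lipoprotein metabolism, lies within 2 kb of it.

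The 19S particle held the highest levels. The 6 ATPases (Psmc1 to Psmc6), which form its unfolding ring, had a median of 133, with Psmc6 (140.2), Psmc1 (137) and Psmc2 (135) highest, Psmc5 at 131, and Psmc4 (114) and Psmc3 (106) lowest. The 11 non-ATPases had a median of 142. Psmd11, a scaffold of the lid, and Psmd6, another lid subunit, had 169.9 and 161, which put them at percentiles 99.4 and 98.9 of all genes. Psmd4, a ubiquitin receptor, had 146, and Psmd14, the enzyme that removes ubiquitin chains, had 142. Psmd1 and Psmd2, the large subunits of the base, had 142 and 139. The lid subunits Psmd12, Psmd13 and Psmd8 had 143, 136 and 119, and Psmd7, the partner of Psmd14, had 111. Psmd3, a lid subunit, was the exception with 87.2.

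Genes that build or regulate the complex were marked at similar levels, with exceptions among the chaperones. The 4 chaperones of 20S assembly had Psmg1 at 138, Psmg2 at 131, Psmg4 at 127 and Psmg3 at 124. The chaperones of the 19S base were spread, with Psmd5 at 123, Psmd9 at 104 and Psmd10 at 53.6. Psmd10, also called gankyrin, is the one member on the X chromosome. The median level of the 459 X-linked genes with a summit was 49.5 in these male mice, against 98.7 for the 13778 other genes, and Psmd10 stood at percentile 64.1 of the X-linked genes. The activators, which cap the core in place of the 19S particle, had Psme4 at 128, Psme2 at 124, Psme3 at 119.8 and Psme1 at 95.8. Psme3ip1 had 146 and Psmc3ip 81.2.

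**Figure D3:**
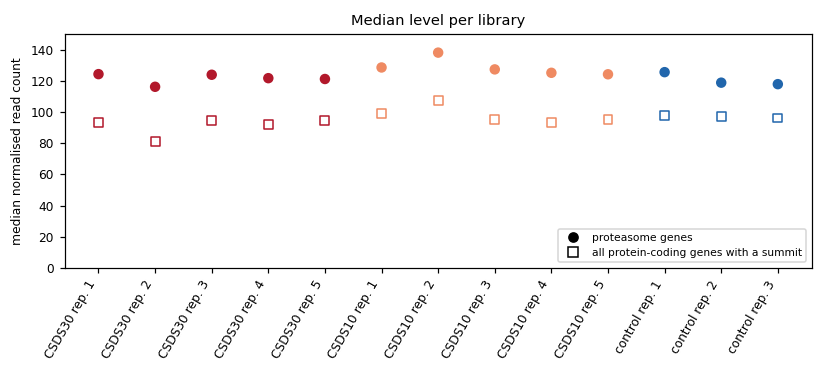
Median normalised read count per library over the 46 proteasome genes (filled circles) and over all 14237 protein-coding genes with a summit (open squares), for the 5 CSDS30, 5 CSDS10 and 3 control libraries. The proteasome median is above the gene median in every library, by 1.22 to 1.43 times.

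The lead of the proteasome genes over other genes was seen in every library. Their median level per library was 122 ± 3.25 (SD, n = 5) in CSDS30, 129 ± 5.56 (SD, n = 5) in CSDS10 and 121 ± 4.21 (SD, n = 3) in control. The gene median was 91.3 ± 5.72 in CSDS30, 98.0 ± 5.65 in CSDS10 and 97.1 ± 0.78 in control, with the same n. The ratio of the member median to the gene median lay between 1.28 and 1.43 in CSDS30, between 1.29 and 1.35 in CSDS10 and between 1.22 and 1.29 in control. CSDS30 replicate 2 had the highest ratio (1.43) and the lowest gene median (81.2). Both quantities come from the same libraries and were not tested.

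After 10 days of defeat, no proteasome gene passed the test against control, and most stood slightly higher. Of the 46 members, 33 were higher and 13 lower in CSDS10 than in control, with a median log2 difference of 0.08, while 53.5% of all genes were higher with a median of 0.01. By role, 5 of 6 alpha-ring genes, 5 of 7 beta-ring genes, 4 of 6 ATPases, 8 of 11 non-ATPases, 2 of 3 immunoproteasome genes, 3 of 4 activators, 2 of 4 chaperones of 20S assembly, 3 of 3 base chaperones and 1 of 2 genes that only share the symbols were higher. At the strongest summit in the 1000 bp after each member's own start, 23 of 41 were higher, and the median was 0.03. The matching share over all genes was not computed. Called by limma with Benjamini-Hochberg adjustment over 152270 summits at 0.05 were 0 of 46 members and 0.0% of all summits (4891 summits had an unadjusted p under 0.05). The other tools also called 0 summits, with 4599 under an unadjusted 0.05 in edgeR and 5410 in DESeq2. The adjusted p was 0.99995 for every member, and 1 member, Psmb9, had an unadjusted p under 0.05 in the higher direction, which 1.87% of genes had. In the lower direction 0 members had one, against 1.03% of genes. In 0 members did the groups fail to overlap in the higher direction (1.72% of genes) or the lower one (1.26%). Without CSDS10 replicate 2, 28 members were higher with a median of 0.04, while 46.6% of all genes were higher with a median of -0.02. With all libraries, 4 of 6 markers of excitatory neurons, 1 of 4 of inhibitory neurons and 3 of 4 of astrocytes were higher in CSDS10 than in control. The counts were 3 of 3 for microglia, 3 of 5 for endothelial cells and 4 of 6 for striatal neurons. For T cells and B cells 0 of 2 were higher, and for liver and muscle 1 of 2. Of the oligodendrocyte markers with a summit (Mbp, Mag, Sox10 and Mal), 0 of 4 had a higher log2 level in CSDS10 than in control. Their summed level per library was 158 to 208 in CSDS30, 129 to 192 in CSDS10 and 168 to 235 in control; their part in the counts of members was not tested. Confidence intervals of 95% reached 0.30 to either side in the median member, and in 38 members they lay within 0.5 of zero on the log2 scale.

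Psmb9, the beta subunit that takes the place of Psmb6 in the immunoproteasome, differed most in CSDS10. Its level was 104, 109, 130.4, 78.7 and 79.0 in CSDS30, 96.0, 129.9, 137, 122 and 139.9 in CSDS10, and 105, 77.3 and 88.3 in control. Of the 5 CSDS10 libraries, 4 stood above every control library, and CSDS10 replicate 1 lay within the control range. The log2 difference was 0.47 (SE 0.17; 95% interval 0.12 to 0.81) in CSDS10 against control, with an unadjusted limma p of 0.00965, and leaving out a library in turn gave 0.36 to 0.58. The summit lies 247 bp before the start of Psmb9 and 21 bp after that of Tap1, the transporter that carries the peptides to the class I molecules, and it is the summit of both genes. The strongest summit on the side of Psmb9 itself, 76 bp after its start, had 90.1 ± 12.1 in CSDS30, 88.3 ± 13.02 in CSDS10 (SD, n = 5 each) and 88.2 ± 9.36 in control (SD, n = 3). There the log2 difference between CSDS10 and control was -0.01 (SE 0.16). Of the 10 summits within 2 kb of Psmb9, 6 were higher and 4 lower in CSDS10, and their sum differed by 0.08. Such counts, here and at the genes below, include the chosen summit. The summits of a gene are read in the same libraries, so they are not independent. Of 6 microglial markers, P2ry12, Tmem119 and C1qa had a summit and Cx3cr1, Csf1r and Aif1 had none, and the 3 had summed levels per library of 58.7 to 90.6 in CSDS30, 56.5 to 87.0 in CSDS10 and 46.9 to 54.5 in control; their part in the Psmb9 values was not tested.

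The other members that stood higher in CSDS10 had smaller differences. At Psmd14 the level was 152, 129.6, 157, 132 and 128 in CSDS30, 131, 192, 169, 129 and 139 in CSDS10, and 131, 135 and 116 in control, a log2 difference of 0.24 (SE 0.14; unadjusted p = 0.0922) in CSDS10 against control. At Psmd3 it was 87.7, 76.5, 95.7, 77.9 and 84.1 in CSDS30, 89.4, 124, 76.2, 108 and 79.7 in CSDS10, and 67.8, 95.6 and 71.1 in control, a difference of 0.28 (SE 0.17; unadjusted p = 0.119). At Psma2 it was 112, 177, 119, 133 and 122 in CSDS30, 113, 162, 156, 159 and 137 in CSDS10, and 139.7, 129 and 102 in control, a difference of 0.23 (SE 0.15; unadjusted p = 0.137). At all 3 genes some CSDS10 libraries lay within the control range. The direction was shared by all 7 summits near Psmd14 and all 8 near Psma2, but by 5 of 9 near Psmd3. Leaving out 1 library moved these differences by over 1.5 times: that at Psmd14 was 0.15 and that at Psmd3 0.18 without CSDS10 replicate 2, Psmd3 gave 0.43 without control replicate 2, and Psma2 gave 0.10 without control replicate 3. At Psmd3, the log2 difference was -0.30 at the strongest summit within 500 bp of the gene and -0.000519 for the sum over all its summits.

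On the lower side, Psmd6 and Psmb2 stood first in CSDS10. At Psmd6 the level was 153, 116, 172, 136 and 139 in CSDS30, 149, 144, 162, 210.1 and 168 in CSDS10, and 189, 182 and 178 in control, a log2 difference of -0.15 (SE 0.13; unadjusted p = 0.278) in CSDS10 against control. CSDS10 replicate 4 stood above all controls and the other 4 CSDS10 libraries below them, and the sum over all summits of the gene gave 0.000381. At Psmb2, a beta-ring subunit with no cutting site, it was 103, 117, 111, 110.4 and 129 in CSDS30, 116, 126, 104, 113 and 119 in CSDS10, and 125, 114 and 139 in control, a difference of -0.12 (SE 0.13; unadjusted p = 0.388). At Psmd8, a lid subunit, it was 127, 117, 110.4, 133 and 119.6 in CSDS30, 130.4, 90.3, 127, 79.6 and 151 in CSDS10, and 127, 127 and 112 in control, a difference of -0.11 (SE 0.16; unadjusted p = 0.488). Without CSDS10 replicate 4, the lowest library at Psmd8, that difference was 0.0091. Psmb10, whose levels are given with the inducible subunits, differed by -0.11 (SE 0.16; unadjusted p = 0.476). Of the 9 summits near Psmb10, 5 were higher and 4 lower in CSDS10, and the difference was -0.21 without control replicate 2 and -0.02 without CSDS10 replicate 2. Psmb2 gave -0.19 without control replicate 2 and -0.05 without control replicate 3, and Psmd6 gave -0.23 without CSDS10 replicate 4 and -0.10 without CSDS10 replicate 2.

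**Figure D4:**
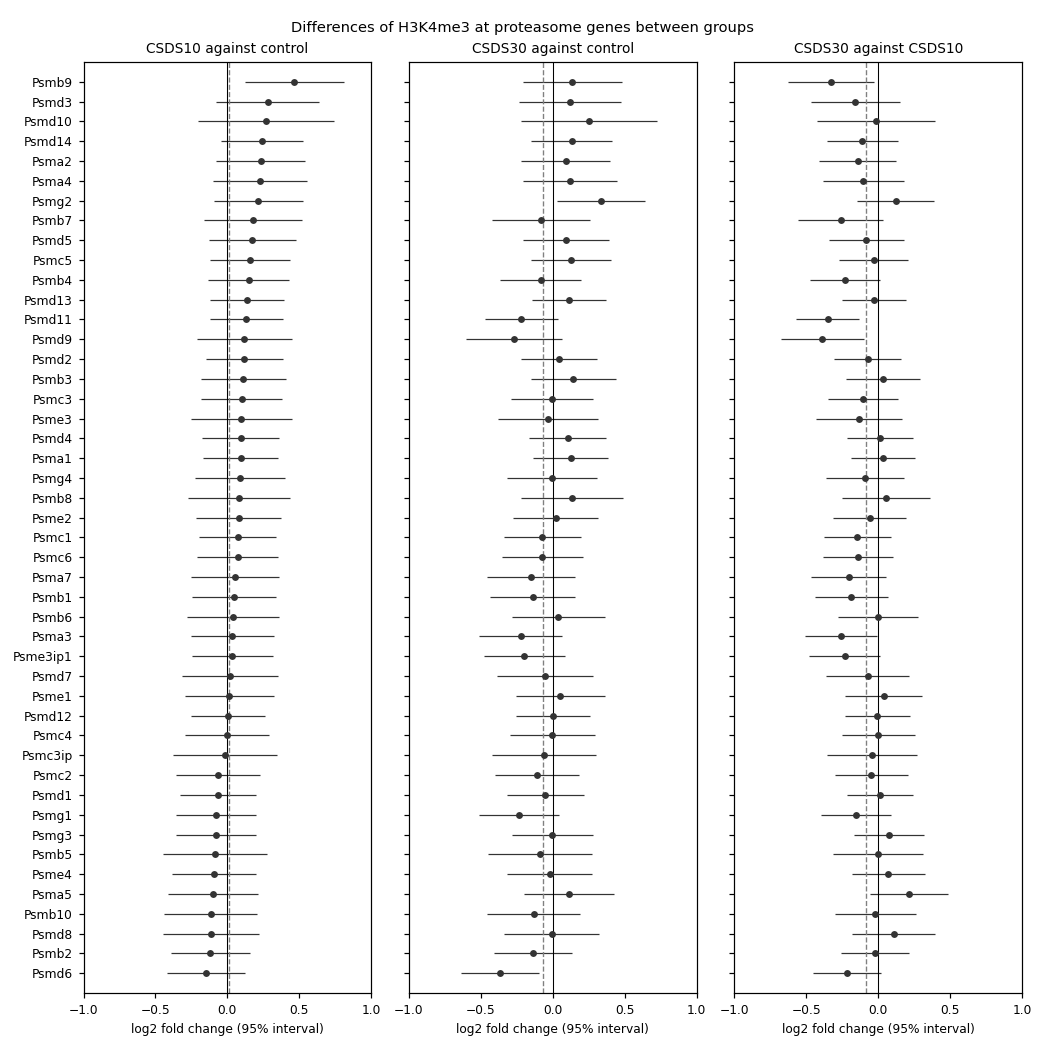
Log2 fold change with its 95% interval from limma (horizontal axis) at the strongest summit of each of 46 proteasome genes in CSDS10 against control, CSDS30 against control and CSDS30 against CSDS10, in the order of the first comparison. Dashed lines mark the medians of all protein-coding genes with a summit (0.01, -0.07 and -0.08). No gene passed the adjusted threshold, and every interval lies between -1 and 1.

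After 30 days, with the authors' scaling, the median proteasome gene stood close to control, while other genes were mostly lower. In CSDS30 against control, 20 members were higher and 26 lower, with a median log2 difference of -0.01, while 34.4% of all genes were higher with a median of -0.07. The direction of the members' median depends on the scaling. With loess offsets, which bring the gene median to -0.01, the members' median was 0.08, and 34 members and 48.5% of genes were higher. Without CSDS30 replicate 2 the members' median was 0.02 with 27 higher, while 39.9% of genes were higher with a median of -0.04. Called by limma with Benjamini-Hochberg adjustment were 0 of 46 members and 0.0% of all summits (5194 summits had an unadjusted p under 0.05). The other tools also called 0, with 4933 summits under an unadjusted 0.05 in edgeR and 5752 in DESeq2. The adjusted p was 0.99998 for every member. An unadjusted p under 0.05 was found for 1 member in the lower direction (Psmd6; 4.4% of genes) and 1 in the higher direction (Psmg2; 0.527% of genes). The groups failed to overlap at 2 members in the lower direction (Psmd6 and Psmg1; 3.16% of genes) and at 0 in the higher one (0.618%). In 40 members the 95% interval lay within 0.5 of zero.

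Psmd6 stood lowest against control after 30 days. Its 5 CSDS30 libraries, given above, all lay below the 3 control libraries, and averaged 143 ± 21.1 (SD, n = 5) against 183 ± 5.88 (SD, n = 3) in control. The log2 difference was -0.36 (SE 0.13; 95% interval -0.64 to -0.09), with an unadjusted limma p of 0.0101, and 5 of the 6 summits near the gene were lower in CSDS30. Leaving out a library in turn gave differences between -0.43 and -0.29, and the sum over all summits gave -0.21. At Psmg1, a chaperone of the alpha ring, the level was 119.8, 134, 128, 109.5 and 141 in CSDS30, 167, 136, 110.1, 136 and 163 in CSDS10, and 153, 143 and 149 in control. Its CSDS30 libraries also all lay below the controls, with a difference of -0.23 (SE 0.14; unadjusted p = 0.0981), and the CSDS10 libraries spanned both.

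Psmd11 and Psmd9 followed on the lower side. At Psmd11 the level was 152, 117, 155, 154 and 166 in CSDS30, 194, 198, 186, 198 and 168 in CSDS10, and 173, 150.3 and 196 in control, a log2 difference of -0.22 (SE 0.12; unadjusted p = 0.0875) in CSDS30 against control. At Psmd9 it was 89.3, 65.6, 102, 89.0 and 101 in CSDS30, 106, 121, 128, 129 and 99.2 in CSDS10, and 89.4, 130.3 and 104 in control, a difference of -0.27 (SE 0.16; unadjusted p = 0.108). Both overlapped with control, since control replicate 2 was within the CSDS30 range at Psmd11 and control replicate 1 at Psmd9. Summed over all summits of the gene, Psmd9 differed by 0.02. Leaving out a library in turn gave -0.32 to -0.13 at Psmd11, where -0.13 was the value without control replicate 3, and -0.40 to -0.13 at Psmd9, where -0.13 was the value without control replicate 2.

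**Figure D5:**
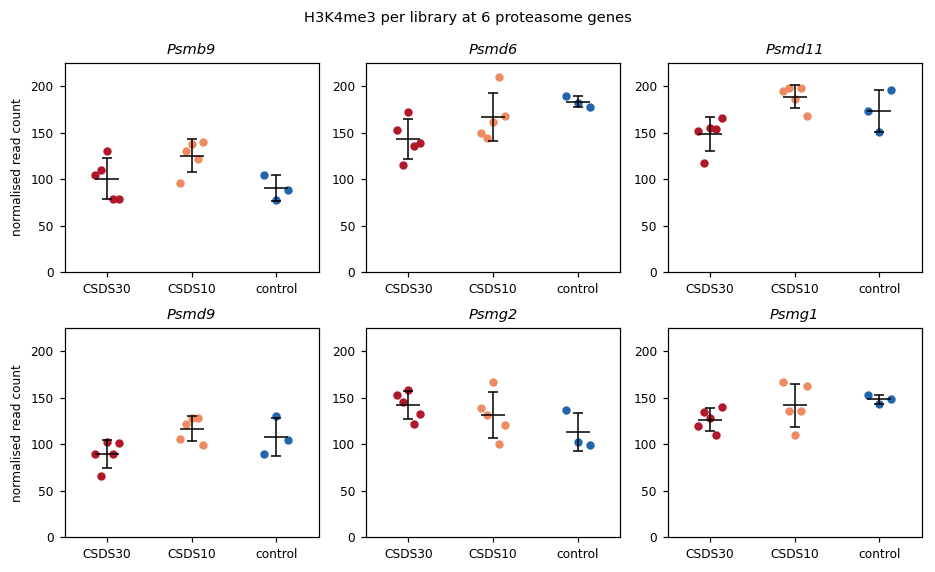
Normalised read count per library (points) with group mean and SD (bars) at the strongest summits of Psmb9, Psmd6, Psmd11, Psmd9, Psmg2 and Psmg1 in CSDS30, CSDS10 and control. At Psmd6 and Psmg1 the CSDS30 libraries lie below all controls, and at Psmd11 they lie below all CSDS10 libraries.

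On the higher side after 30 days stood Psmg2, the partner of Psmg1 in the chaperone dimer of the alpha ring. At Psmg2 the level was 153, 145, 159, 121 and 133 in CSDS30, 139, 131, 168, 99.9 and 121 in CSDS10, and 137, 103 and 99.7 in control. The log2 difference was 0.34 (SE 0.15; 95% interval 0.03 to 0.64; unadjusted p = 0.0334) in CSDS30 against control, and 3 of the 5 CSDS30 libraries stood above every control. It was not shared by all of the gene's summits: 4 of 9 were higher and their sum differed by -0.03. A boundary of Cep76, a centrosomal protein gene, also lies within 2 kb of the summit. At Psmd10 the level was 59.5, 67.2, 46.3, 65.0 and 39.1 in CSDS30, 50.04, 39.5, 67.8, 79.6 and 46.3 in CSDS10, and 50.3, 41.7 and 44.7 in control, a difference of 0.25 (SE 0.23; unadjusted p = 0.286). At Psma1, an alpha-ring subunit, it was 157, 125, 148, 146 and 144 in CSDS30, 138, 141, 136, 137 and 151 in CSDS10, and 152, 134 and 112 in control, a difference of 0.13 (SE 0.13; unadjusted p = 0.334). At Psmb3, a beta-ring subunit with no cutting site, it was 126, 117, 109, 113 and 107 in CSDS30, 103, 139.7, 116, 108 and 95.9 in CSDS10, and 94.3, 119 and 98.6 in control, a difference of 0.14 (SE 0.15; unadjusted p = 0.337). The CSDS30 and control libraries overlapped at Psmd10, Psma1 and Psmb3. At Psma1 the difference ran between 0.01, with control replicate 3 left out, and 0.23, with control replicate 1 left out, and Psmb3 gave 0.08 with control replicate 1 left out and 0.24 with control replicate 2 left out.

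Between the durations of defeat, most members stood lower after 30 days with the authors' scaling, as other genes did, and not with loess offsets. In CSDS30 against CSDS10, 13 members were higher and 33 lower, with a median log2 difference of -0.07, and 31.6% of all genes were higher with a median of -0.08. With loess offsets, under which the gene median was -0.0022, the members' median was 0.03, and 28 members and 49.5% of genes were higher. Called by limma with Benjamini-Hochberg adjustment were 0 of 46 members and 0.0% of all summits (7795 summits had an unadjusted p under 0.05). The other tools also called 0, with 6838 summits under an unadjusted 0.05 in edgeR and 7796 in DESeq2. Adjusted p-values of members ran between 0.963 and 0.99994. Unadjusted p-values under 0.05 were found for 4 members in the lower direction (Psmd11, Psmd9, Psmb9 and Psma3; 8.89% of genes) and for 0 in the higher one (0.646%). The groups failed to overlap at 1 member in the lower direction (Psmd11; 0.997% of genes) and at 0 in the higher one (0.126%). In 41 members the 95% interval lay within 0.5 of zero. The libraries of each group enter 2 of the 3 comparisons, so the sets of differences are not independent.

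Psmd11, the member with the highest level, stood lower in all 5 CSDS30 libraries than in any CSDS10 library, and averaged 149 ± 18.5 in CSDS30 against 189 ± 12.5 in CSDS10 (SD, n = 5 each). The log2 difference was -0.35 (SE 0.11; 95% interval -0.57 to -0.13), with an unadjusted limma p of 0.00271 and an adjusted p of 0.963. Leaving out a library in turn gave -0.39 to -0.27, and -0.27 was the value without CSDS30 replicate 2. Of its 8 summits, 5 were lower and 3 higher, and the summed reads differed by -0.16. At Psmd9 the difference was -0.39 (SE 0.14; unadjusted p = 0.00969), with 5 of 6 summits lower and the single CSDS10 replicate 5 inside the CSDS30 range. At Psmb9 it was -0.33 (SE 0.15; unadjusted p = 0.0318), but 9 of its 10 summits were higher in CSDS30, their sum differed by 0.05, and the summit after its own start by 0.03. At Psma3, an alpha-ring subunit, the level was 101, 81.2, 95.7, 111 and 95.6 in CSDS30, 107, 124, 112, 112 and 124 in CSDS10, and 124, 109 and 105 in control, a difference of -0.26 (SE 0.12; unadjusted p = 0.0429). CSDS30 replicate 4 was the one library of its group within the CSDS10 range at Psma3. The summit taken for Psma3 lies 6092 bp before its RefSeq start. At the summit 194 bp after that start, with a level of 105, the difference was -0.23 (SE 0.16; unadjusted p = 0.149). At the strongest summit within 500 bp of the gene, with a level of 37.5, it was 0.03.

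The 13 members that stood higher after 30 than after 10 days are a share of 28.3%, against 31.6% of all genes. At Psma5, an alpha-ring subunit, the level was 99.4, 122, 113, 114 and 102 in CSDS30, 101, 88.9, 104, 76.2 and 106 in CSDS10, and 104, 84.3 and 118 in control, a log2 difference of 0.21 (SE 0.13; unadjusted p = 0.117) in CSDS30 against CSDS10. At Psmg3, a chaperone of 20S assembly, it was 134, 134, 113, 116 and 137 in CSDS30, 103, 128, 120.5, 130.4 and 119.5 in CSDS10, and 115, 117 and 150.2 in control, a difference of 0.08 (SE 0.12; unadjusted p = 0.528). The groups overlapped at both. The value at Psma5 was not shared by the summit 368 bp after its own start, which had 81.7 ± 17.6 in CSDS30, 102 ± 16.3 in CSDS10 (SD, n = 5 each) and 105 ± 13.5 in control (SD, n = 3), a log2 difference of -0.34 (SE 0.16; unadjusted p = 0.0376) in CSDS30 against CSDS10 and of -0.38 (SE 0.18; unadjusted p = 0.0400) in CSDS30 against control. Of the 9 summits near Psma5, 3 were higher and 6 lower in CSDS30. Without CSDS10 replicate 4, the value at the strongest summit of Psma5 was 0.14. At Psmg3 it was 0.02 without CSDS10 replicate 1 and 0.12 without CSDS30 replicate 3. Psmg2 differed by 0.12 (SE 0.13; unadjusted p = 0.362) and Psmd8 by 0.11 (SE 0.14; unadjusted p = 0.457). Without CSDS10 replicate 4, the value was -0.02 at Psmd8 and 0.03 at Psmg2, and without CSDS10 replicate 3 it was 0.21 at Psmg2. Summed over all summits, Psma5 differed by -0.03 and Psmg2 by -0.12.

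The remaining members had unadjusted p-values above 0.05 in each comparison. Among those not given library by library, group means at the alpha-ring gene Psma4 were 119 ± 14.5 in CSDS30, 129.7 ± 24.0 in CSDS10 and 111 ± 21.6 in control (SD, with n = 5 in each defeat group and n = 3 in control). With the same n, Psmb4 averaged 139 ± 23.4 in CSDS30, 163 ± 20.1 in CSDS10 and 146 ± 3.24 in control, and Psmb1 averaged 139 ± 23.9 in CSDS30, 158 ± 14.9 in CSDS10 and 153 ± 26.9 in control. The ubiquitin receptor Psmd4 had 149 ± 13.9 in CSDS30, 148 ± 22.2 in CSDS10 and 138 ± 4.30 in control. Among the ATPases, Psmc1 had 129.6 ± 6.53 in CSDS30, 144 ± 15.7 in CSDS10 and 137 ± 21.9 in control, and Psmc6 had 133 ± 14.2 in CSDS30, 148 ± 24.6 in CSDS10 and 139.8 ± 15.1 in control. Psmc2, Psmc3, Psmc4 and Psmc5 had group means between 103 and 141. The base scaffold Psmd2 had 137 ± 19.5 in CSDS30, 144 ± 8.98 in CSDS10 and 132 ± 10.2 in control, and its partner Psmd1 had 141 ± 13.3 in CSDS30, 140.2 ± 18.5 in CSDS10 and 146 ± 11.6 in control. Psmd7 had 107 ± 17.2 in CSDS30, 113 ± 16.2 in CSDS10 and 112 ± 24.5 in control. The nuclear activator Psme3 had 117 ± 30.4 in CSDS30, 125 ± 13.1 in CSDS10 and 117 ± 17.0 in control. The strongest summit within 1000 bp after each member's own start could be taken for 41 members and changed the summit in 12. There, 23 were higher in CSDS10 against control, 18 in CSDS30 against control and 14 in CSDS30 against CSDS10. In each comparison 0 were called, and the matching shares over all genes were not computed. At the start summit of Psmf1 the means were 127 ± 15.2 in CSDS30, 126 ± 4.83 in CSDS10 and 124 ± 21.8 in control. At that of Psma6 they were 100.3 ± 7.31 in CSDS30, 116 ± 29.0 in CSDS10 and 115 ± 11.8 in control.

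The genes that work with the proteasome were read from lists of 69 genes, of which 65 had a summit (Ecpas, Ddi1 and Usp7 had none and Paaf1 was not matched). In each comparison 0 of 65 were called, and 34 were higher in CSDS10 against control (median log2 difference 0.01), 22 in CSDS30 against control (-0.10) and 19 in CSDS30 against CSDS10 (-0.11). Over all genes, 53.5% were higher in CSDS10 against control, 34.4% in CSDS30 against control and 31.6% in CSDS30 against CSDS10. With loess offsets, 48.5% of all genes were higher in CSDS30 against control and 49.5% in CSDS30 against CSDS10. The counts and differences of the lists are given only with the authors' scaling. Unadjusted p-values under 0.05 were found for 4 genes in CSDS10 against control, 3 in CSDS30 against control and 12 in CSDS30 against CSDS10, while of all 14237 genes 412 had one in CSDS10 against control, 701 in CSDS30 against control and 1357 in CSDS30 against CSDS10. Of the 10 genes of proteasome transcription and its feedback, 6 were higher in CSDS10 against control, 0 in CSDS30 against control and 1 in CSDS30 against CSDS10. Nfe2l1, the factor that raises proteasome genes, averaged 89.5 ± 7.68 in CSDS30, 115 ± 13.6 in CSDS10 (SD, n = 5 each) and 101 ± 14.4 in control (SD, n = 3), a log2 difference of -0.35 (SE 0.13; unadjusted p = 0.011) in CSDS30 against CSDS10. Nfe2l2, a related factor of the oxidative response, averaged 75.5 ± 18.6 in CSDS30, 104 ± 20.7 in CSDS10 and 84.6 ± 19.4 in control, a difference of -0.46 (SE 0.17; unadjusted p = 0.00992). The adjusted p was 0.963 for both by limma.

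Among subunits outside the symbol rule, Sem1, a small lid subunit, averaged 92.6 ± 16.8 in CSDS30, 125 ± 22.1 in CSDS10 and 119 ± 10.2 in control, a log2 difference of -0.43 (SE 0.14; unadjusted p = 0.00453) in CSDS30 against CSDS10 and -0.37 (SE 0.16; unadjusted p = 0.0287) in CSDS30 against control. Uchl5, a deubiquitinase bound to the 19S particle, averaged 102 ± 7.61 in CSDS30, 123 ± 12.1 in CSDS10 and 99.1 ± 10.0 in control, a difference of 0.31 (SE 0.14; unadjusted p = 0.0341) in CSDS10 against control. Faf1, a cofactor of p97, differed by 0.45 (SE 0.17; unadjusted p = 0.0101) in the same comparison, and Usp9x, a deubiquitinase, by 0.55 (SE 0.23; unadjusted p = 0.0193). Of the 17 genes of antigen presentation and the interferon response, 8 were higher in CSDS10 against control and 6 in CSDS30 against control. Isg15, a ubiquitin-like protein induced by interferon, averaged 82.3 ± 17.1 in CSDS30, 98.6 ± 11.3 in CSDS10 and 109 ± 2.93 in control, a difference of -0.43 (SE 0.17; unadjusted p = 0.0157) in CSDS30 against control, and no CSDS30 library reached the lowest control there, which held for 3.16% of all genes. Stat2, a transcription factor of that response, differed by -0.41 (SE 0.14; unadjusted p = 0.00629) in CSDS30 against CSDS10. None of these passed the adjusted threshold in limma, and Tap1 is counted in this list at the summit it shares with Psmb9.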

How the data were processed

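ChIP-seq of H3K4me3 was analysed from 1 deposited table of 153207 peak summits and 13 libraries; the input library was not analysed here. The tools named are Bowtie2, MACS2, Trimmomatic and DESeq2, and the builds mm10 and GRCm38.p5, per the submitters' processing notes. Their versions and settings, duplicate handling and the counting window: not given in the sources used here. Per the labels' protocols, mononucleosomes from micrococcal nuclease were read as single 100 bp reads. The table holds a signal per library that the authors divided by 1 size factor, found from the values: 100% were whole multiples of 1 step (tolerance 0.001 reads), which gave reads back. The deposited peak score has no stated scale and served only as a filter alternative. Libraries had 6 to 8 PCR cycles, and no molecular identifier is named in the labels, so reads may repeat a molecule.

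The main test was limma 3.58.1 on log2(value + 1), with a variance trend, all 13 libraries in 1 fit and Benjamini-Hochberg adjustment over 152270 summits (937 left out by filterByExpr), in R 4.3.3. Fold changes on that scale understate changes of low summits. edgeR 4.0.16 and DESeq2 1.42.0 on the recovered reads were alternatives, with other pseudocounts, scalings, filters, distances, a replicate block and leave-one-out. The limma step was also run on simulated reads with larger changes than those described here, so that run does not bear on differences of this size. Genes came from a RefSeq table (GRCm38.p6) that gives boundaries without strand; strand and starts came from the RefSeq promoters.

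Members and lists were chosen with earlier results of these data known. Library values are given for the 4 members per direction with the smallest p in each comparison and for 6 cutting subunits, Psmb5 to Psmb10; at most 2 genes per pathway list and direction are named. Correlations of deviations lay between -0.29 and 0.37 for same-numbered libraries of different groups, and between -0.43 and 0.38 for the other pairs. These ranges cannot show whether replicate numbers pair the libraries, and the main test used no pairing.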

Additional observations from a re-analysis of the deposited data

Results flagged for a closer look

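Among the 22 members given library by library, 44 groups of 5 libraries were checked for a library far from the others of its group, and 2 stood apart; chance alone gives about 1 in 20 groups. Both were CSDS30 replicate 2. At Psmb7, the trypsin-like subunit, that library had 65.6 normalised reads, while the other CSDS30 libraries had 114 to 120.3. At Psmd11, the lid scaffold, it had 117, while the others had 152 to 166. The same library had the lowest median over all genes (81.2) and the highest ratio of the member median to the gene median (1.43). Without it, the log2 difference of Psmd11 in CSDS30 against CSDS10 was -0.27, on the same side as with it.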

How the results depend on the processing

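No alternative called a member: 0 of the members tested passed in each comparison under 13 leave-one-out fits and 17 other alternatives, of which the strongest summits around a RefSeq start, in the gene and in the 1000 bp after the start were chosen after seeing the data. The median log2 difference of the proteasome genes ran from 0.04 to 0.09 (CSDS10 against control), -0.05 to 0.02 (CSDS30 against control) and -0.08 to -0.04 (CSDS30 against CSDS10) when a library was left out. Loess offsets moved it to 0.0848 in CSDS30 against control and 0.0314 in CSDS30 against CSDS10. Of the values for single genes, 698 kept their direction and 14 reversed. The alternatives around a RefSeq start and in the 1000 bp after the start held no value for Psmd3, Psmb2 and Psmg2. Many of the 698 could not change, so their number does not measure how stable the directions are. Leaving out a library of the group not compared, or changing only the filter, gives the same difference at a summit. Of 24 differences named for single genes, 15 moved by over 1.5 times when 1 library was left out, and 9 did not. When a library was left out, Psmd8 ran from -0.22 to 0.0091 in CSDS10 against control and from -0.0171 to 0.21 in CSDS30 against CSDS10, reversing without CSDS10 replicate 4. Summed over all summits, Psmd3 gave -0.000519 and Psmd6 0.000381 in CSDS10 against control, Psmg2 -0.0328 and Psmd9 0.0233 in CSDS30 against control, and Psma5 -0.0284, Psmg2 -0.115 and Psmb9 0.0508 in CSDS30 against CSDS10. At the strongest summit within 500 bp, Psmd3 gave -0.296 in CSDS10 against control and Psma3 0.0332 in CSDS30 against CSDS10. At the strongest summit in the 1000 bp after the start, Psmb9 gave -0.00803 in CSDS10 against control and 0.0329 in CSDS30 against CSDS10, and Psma5 -0.337 in CSDS30 against CSDS10. The cause was not tested. With the replicate number as a block, the medians were 0.07 (CSDS10 against control), -0.01 (CSDS30 against control) and -0.07 (CSDS30 against CSDS10), and 0 members were called. Between 28 and 271 reads per member and library, and 3 control libraries, limit the precision.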
